A study of Saccharomyces cerevisiae with 91 samples.

Results

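The regions described here are the promoters of protein-coding genes (ORFs) of budding yeast, Saccharomyces cerevisiae, whose nucleosome-depleted region (NDR) was longer than 400 bp. NDR length is the distance in bp between the dyad, or midpoint, of the first nucleosome of the transcribed region (+1) and the dyad of the next nucleosome upstream (−1). The members were selected on these measured lengths, so lengths and dyad positions are given as a description and no test was applied to them. Of 4485 ORF promoters with an NDR length, 327 (7.29%) lay above 400 bp, and they were set against the 2412 promoters with an NDR of 220 to 300 bp. Dyads came from a single MNase-seq library of the 91 in the series, made from nuclei of wild-type strain BY4741 that grew to log phase in YPD medium, and the in vitro reconstitutions were not used. With 1 library there was no replicate error on any dyad, and the depth behind the calls is unknown.

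MNase digests linker DNA and leaves nucleosomal DNA, so the fragments that survive mark where histone octamers sat. Promoter NDRs hold the binding sites of transcription factors and the site where the transcription machinery assembles, and the transcription start site (TSS) of a yeast gene usually lies at the downstream edge of the NDR, within or next to the +1 nucleosome. Stretches of A or T (poly(dA:dT) tracts) resist bending around the octamer, and tRNA genes, transcribed by RNA polymerase III, are known in yeast to be kept largely free of nucleosomes by their own transcription complex.

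Sequences of 8 members are shown here because they hold the features that the comparisons below turn on. Each is the stretch that ends 1 base upstream of the TSS, on the strand of the gene, from the RefSeq R64 genome. None of these stretches overlapped the transcript of another ORF in the table. In the first 3 the capitals mark runs of 6 or more A or T. They belong to RPS9A (chrXVI:404659-404908, plus strand), PFK1 (chrVII:974010-974259, minus strand) and RPL10 (chrXII:282629-282878, plus strand), which had 47, 37 and 36 bases in such runs.
RPS9A: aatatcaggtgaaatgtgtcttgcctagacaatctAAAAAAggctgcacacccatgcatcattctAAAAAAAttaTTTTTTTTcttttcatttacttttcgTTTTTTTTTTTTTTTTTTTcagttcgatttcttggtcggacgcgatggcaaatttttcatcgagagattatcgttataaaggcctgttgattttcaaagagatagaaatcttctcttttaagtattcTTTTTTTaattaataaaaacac
PFK1: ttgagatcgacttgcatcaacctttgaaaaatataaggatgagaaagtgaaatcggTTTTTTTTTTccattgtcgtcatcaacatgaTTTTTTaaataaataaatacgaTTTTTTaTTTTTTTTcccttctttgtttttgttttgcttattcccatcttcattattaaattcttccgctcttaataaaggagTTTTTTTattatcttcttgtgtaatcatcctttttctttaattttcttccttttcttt
RPL10: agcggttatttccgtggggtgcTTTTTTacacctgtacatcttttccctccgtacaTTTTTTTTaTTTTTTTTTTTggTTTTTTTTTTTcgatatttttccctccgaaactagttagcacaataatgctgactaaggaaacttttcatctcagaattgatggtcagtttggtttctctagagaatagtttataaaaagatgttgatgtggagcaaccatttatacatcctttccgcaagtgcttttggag

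In the next 3 the capitals mark tRNA genes that lie inside the NDR. SAT4 (chrIII:127711-128010, plus strand) is the longest NDR with a tRNA gene, an asparagine tRNA. The stretch of UBA2 (chrIV:1256890-1257139, minus strand) holds a glycine tRNA gene and no repeated 50-mer, and that of TGL2 (chrIV:568738-569037, minus strand) holds an aspartate and an arginine tRNA gene on the opposite strand. UBA2 and TGL2 were chosen after their values were seen.
SAT4: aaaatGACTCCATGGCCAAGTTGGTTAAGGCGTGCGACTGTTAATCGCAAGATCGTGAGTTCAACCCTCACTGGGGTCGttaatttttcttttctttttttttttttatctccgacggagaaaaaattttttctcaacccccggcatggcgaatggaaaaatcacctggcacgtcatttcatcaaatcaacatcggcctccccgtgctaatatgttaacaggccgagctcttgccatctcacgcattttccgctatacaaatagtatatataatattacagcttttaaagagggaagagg
UBA2: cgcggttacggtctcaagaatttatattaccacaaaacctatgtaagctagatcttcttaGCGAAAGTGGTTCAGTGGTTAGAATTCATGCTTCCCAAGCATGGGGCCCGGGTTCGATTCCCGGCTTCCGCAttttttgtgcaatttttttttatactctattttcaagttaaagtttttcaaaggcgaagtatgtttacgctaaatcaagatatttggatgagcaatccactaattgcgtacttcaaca
TGL2: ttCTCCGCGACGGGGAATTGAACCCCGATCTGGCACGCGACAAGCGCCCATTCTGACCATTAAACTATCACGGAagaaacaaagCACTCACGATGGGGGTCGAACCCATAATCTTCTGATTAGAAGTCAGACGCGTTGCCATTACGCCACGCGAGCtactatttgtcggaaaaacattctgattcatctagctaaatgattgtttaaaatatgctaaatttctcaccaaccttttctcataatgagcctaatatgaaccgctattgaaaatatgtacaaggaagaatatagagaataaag

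In the last 2 the capitals mark GAANNTTC, the palindromic core of the heat shock element bound by Hsf1. They belong to the chaperone genes SSA2 (chrXII:97583-97832, minus strand) and SIS1 (chrXIV:619743-619992, minus strand), each with 2 matches.
SSA2: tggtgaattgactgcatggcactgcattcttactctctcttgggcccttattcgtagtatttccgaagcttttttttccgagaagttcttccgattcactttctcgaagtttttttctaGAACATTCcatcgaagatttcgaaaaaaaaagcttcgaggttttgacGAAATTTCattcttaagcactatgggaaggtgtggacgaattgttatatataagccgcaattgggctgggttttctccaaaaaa
SIS1: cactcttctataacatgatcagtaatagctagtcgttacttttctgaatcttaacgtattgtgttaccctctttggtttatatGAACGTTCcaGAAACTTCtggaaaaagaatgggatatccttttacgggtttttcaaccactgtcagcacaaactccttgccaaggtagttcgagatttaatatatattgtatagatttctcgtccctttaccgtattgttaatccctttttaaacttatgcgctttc

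NDRs above 400 bp spanned 401 to 729 bp, with a median of 449 bp and quartiles of 422.5 and 481.5 bp, against a median of 264 bp in the 220 to 300 bp group. Lengths of 401 to 450 bp were found at 172 members, 451 to 500 bp at 99 and more than 500 bp at 56, of which 8 exceeded 600 bp. Members lay on all 16 chromosomes, with 6 to 44 on each. Just inside the limit were SSB1, FMS1 and BUD21 at 401 bp, and just outside it MNT3, YEH1 and TOS4 at 400 bp. The shortest NDR above 0 was 120 bp, a length shared by 120 ORF promoters, and 9 ORF rows were listed at 0. Per the authors' methods, each called dyad removed the positions within 120 bp of it. Lengths of 120 bp thus lie at the limit set by the calling.

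**Figure D1:**
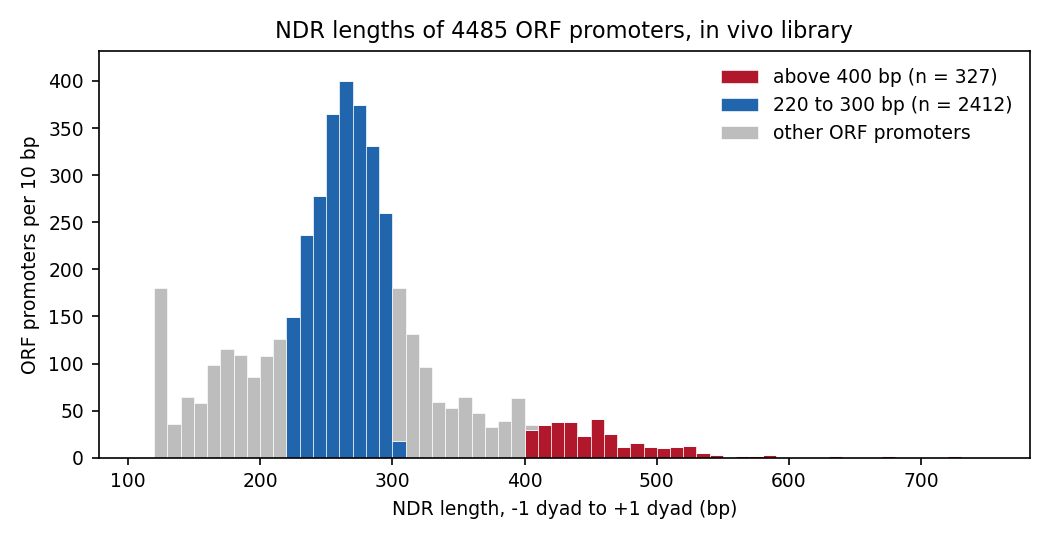
Histogram of NDR lengths (bp, 10 bp bins) over ORF promoters, as the number of promoters per bin. The 327 promoters above 400 bp form a thin tail on the right of the 220 to 300 bp group of 2412 promoters. The 9 rows listed at 0 are not drawn.

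The added length lay mostly upstream of the TSS. The distance between the −1 dyad and the TSS was 376 bp at the median in long NDRs (quartiles 331 and 409.5 bp) and 211 bp in the 220 to 300 bp group (quartiles 189 and 231 bp). The distance between the TSS and the +1 dyad was 62 bp in long NDRs (quartiles 47.5 and 116 bp) and 52 bp in the 220 to 300 bp group (quartiles 40 and 65 bp). Counted from the −1 dyad, the TSS sat at 85.9% of the NDR in long NDRs and at 80.2% in the 220 to 300 bp group. The −1 dyad was more than 300 bp upstream of the TSS at 266 members and at most 200 bp upstream at 18.

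A group of 69 members had its +1 dyad more than 150 bp downstream of the TSS, a limit set after the values were seen. At these the TSS to +1 distance was 226 bp and the −1 to TSS distance 244 bp (medians). At the other 258 members these distances were 55 and 386 bp. In the 220 to 300 bp group 88 promoters had so distant a +1 dyad. Of the 56 members above 500 bp, 26 belonged to the 69, so the longest NDRs were often long on the downstream side.

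The table also holds another column of +1 dyads, whose origin is not stated and whose positions fall on a 10 bp grid (4476 of 4477 end in the digit 1). It placed a +1 dyad at 326 members and lay within 20 bp of the dyad used for the NDR length at 205 of them. At 58 members the columns differed by more than 120 bp, and at 57 of these the dyad used for the length was the one further downstream. In the 220 to 300 bp group the columns differed by more than 120 bp at 62 of 2410 promoters. With the other column 248 members stayed above 400 bp and 78 did not. Of the 69 members with a distant +1 dyad, 55 fell to 400 bp or less, and their other +1 dyad was 45 bp from the TSS at the median over the 69. Of the members with a nearer dyad, 234 stayed above 400 bp and 23 did not. Most NDRs with a +1 dyad near the TSS were thus long by both columns, and most with a distant one were not.

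**Figure D2:**
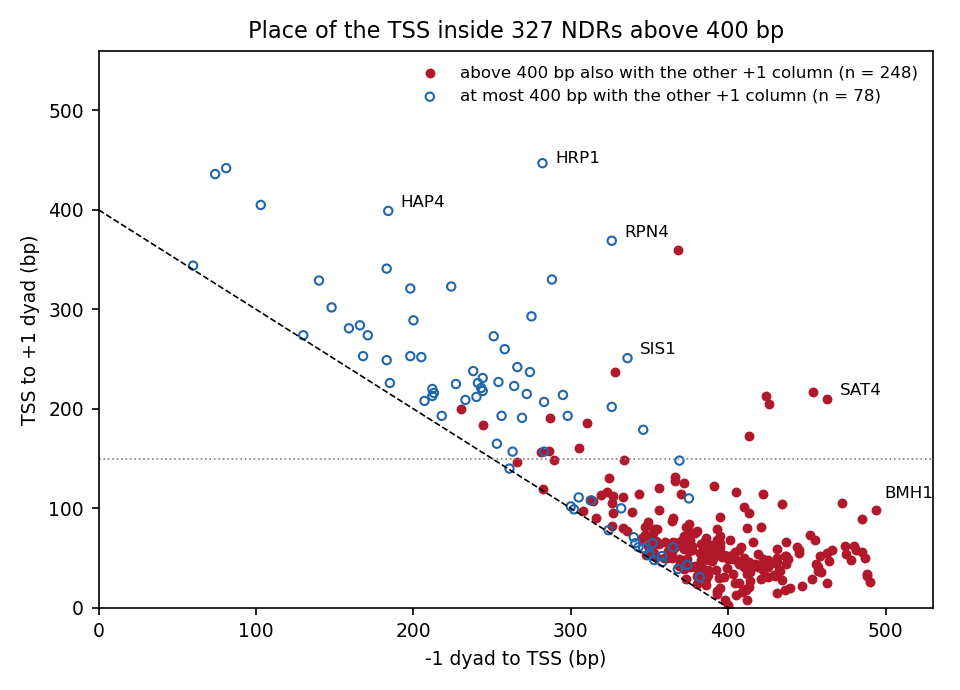
Distance in bp between the −1 dyad and the TSS (x axis) and between the TSS and the +1 dyad (y axis) for each of the 327 members. Filled points stayed above 400 bp with the other +1 column (248) and open points did not (78). The dashed line marks an NDR of 400 bp and the dotted line a +1 dyad at 150 bp, above which most points are open.

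The longest NDR was that of HRP1 (chromosome XV, dyads at 87183 and 87912), which encodes an mRNA-binding subunit of the 3′ end cleavage factor. It measured 729 bp with 282 bp upstream of the TSS and 447 bp downstream, and 298 bp with the other +1 column. RPS9A, a small-subunit ribosomal protein gene (chromosome XVI, 404541 to 405269), measured 728 bp, split into 368 bp upstream and 360 bp downstream, and 440 bp with the other column. RPN4, the transcription activator of proteasome genes (chromosome IV, 416591 to 417286), measured 695 bp, with 326 bp upstream and 369 bp downstream, and 385 bp with the other column. The other column put a +1 dyad 16, 72 and 59 bp downstream of the TSS of HRP1, RPS9A and RPN4, so their downstream length rests on the column that chose the members, and of these 3 only RPS9A stayed above 400 bp by both columns.

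SAT4, a protein kinase gene of ion homeostasis, measured 673 bp and HOS3, a histone deacetylase gene, 671 bp, and both stayed long with the other column (503 and 482 bp). NCE102, which encodes a membrane protein of eisosomes, measured 637 bp and was the longest by the other column, at 641 bp. SSP120 measured 631 bp, and 455 bp with the other column. PFK1, the alpha subunit of phosphofructokinase, measured 618 bp with 288 bp upstream of the TSS and 330 bp downstream, and 336 bp with the other column. BMH1, a 14-3-3 protein gene, had the largest distance between the −1 dyad and the TSS of all members, 494 bp, in an NDR of 592 bp. Of these 6 genes, PFK1 was the one with more of its NDR downstream of the TSS than upstream.

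SIS1, an Hsp40 co-chaperone gene, measured 587 bp, of which 336 bp lay upstream of the TSS, and 357 bp with the other column. TOS1, a cell wall protein gene, measured 586 bp. HAP4, the activating subunit of the factor that induces respiratory genes, measured 583 bp with only 184 bp upstream of the TSS and 399 bp downstream. YMR291W, listed as TDA1 in the annotation, measured 577 bp, and the row of HXK1, the hexokinase isoenzyme 1 gene, 574 bp. CCC1, a vacuolar iron transporter gene, measured 568 bp, ROM1, an exchange factor gene for the GTPase Rho1, 565 bp, and FLR1, a multidrug transporter gene, 547 bp. The last of the 20 longest were the condensin gene YCS4 (542 bp), the RNA-binding protein gene WHI4 (541 bp) and the co-chaperone gene SGT2 (539 bp), which had 480, 485 and 481 bp upstream of the TSS. This set held long NDRs of both kinds, since CCC1 and FLR1 measured 382 and 241 bp with the other column and YCS4, WHI4 and SGT2 measured 522, 548 and 543 bp.

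Gene lists of known function were then read against the 7.29% of all ORF promoters above 400 bp. Length chose the members, and the lists were chosen with earlier results of these data known. These shares and their intervals are thus a description and no test against 7.29%. Of 130 promoters of cytosolic ribosomal protein genes, 19 were above 400 bp (14.6%, 95% Wilson interval 9.56 to 21.7%). The list was spread widely, with 58 NDRs under 220 bp, 17 of 220 to 300 bp and 36 between 300 and 400 bp, and its median of 241 bp was below the 265 bp of all ORF promoters. Large-subunit genes made up 15 of the 19 members out of 73 RPL rows, and small-subunit genes 4 out of 53 RPS rows. After RPS9A, the 5 longest were the row of RPL29 (538 bp), RPL22A (524 bp), RPL17A (502 bp), RPS6B (490 bp) and RPL5 (452 bp). The row of RPL29 also names YFR032C-B, which lies upstream of RPL29. Its TSS was 428 bp from the start codon of RPL29, so this NDR lies at the start of the joint row. All 19 stayed above 400 bp with the other +1 column, none held a repeated 50-mer, and their −1 dyads lay at least 308 bp upstream of the TSS. Except at RPS9A, the +1 dyad of each lay at most 104 bp downstream of the TSS, so the ribosomal members were long on the upstream side.

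Of 22 glycolysis and fermentation genes, 6 were members (27.3%, 13.2 to 48.2%), and the list's median was 297 bp. Besides PFK1 and HXK1 these were PGI1, phosphoglucose isomerase (492 bp), GLK1, glucokinase (428 bp), ENO2, enolase (425 bp), and CDC19, pyruvate kinase (411 bp). PGI1, HXK1 and GLK1 stayed above 400 bp with the other column (460, 538 and 483 bp), and PFK1 and CDC19 did not (336 and 372 bp). ENO2 has no dyad in that column, and 13.2% of its NDR consisted of repeated 50-mers. PFK26 (451 bp) and PFK27 (473 bp), which make the phosphofructokinase activator fructose 2,6-bisphosphate, were members too. With PFK1, 3 of the 4 promoters of genes named PFK were thus above 400 bp, beside 7.29% of all ORF promoters.

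Of 19 heat shock and chaperone genes, 4 were members (21.1%, 8.51 to 43.3%), namely SIS1, the Hsp70 genes SSA2 (520 bp) and SSA1 (469 bp), and the ribosome-associated Hsp70 gene SSB1 (401 bp). Their shapes differed. SSA2 had 488 bp upstream of the TSS and 32 bp downstream, and SSA1 had 140 bp upstream and 329 bp downstream. With the other column SSA2 measured 539 bp, against 240 bp for SSA1, 357 bp for SIS1 and 375 bp for SSB1. The list as a whole was spread widely, with 8 NDRs under 220 bp and a median of 267 bp, beside 265 bp for all ORF promoters. Other chaperone genes outside the list, picked after their values were seen, were members as well: ZUO1 (536 bp), HSC82 (525 bp), MDJ1 (513 bp), SSE2 (483 bp) and AHA1 (435 bp). Chaperone genes outside the list that are not members were not counted, so these names give no share.

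Of 43 genes of sequence-specific transcription regulators, 7 were members (16.3%, 8.12 to 30.0%). Besides RPN4 and HAP4 these were ASH1, the repressor of HO in daughter cells (523 bp), MOT3 (508 bp), YAP1, the activator of the oxidative stress response (439 bp), SKN7 (437 bp) and FKH1 (418 bp). ASH1 had 81 bp upstream of the TSS and 442 bp downstream, and measured 150 bp with the other column. YAP1, SKN7 and FKH1 had 399, 390 and 351 bp upstream, and measured 474, 430 and 421 bp with the other column. The list thus held members of both kinds, and those above 500 bp were the ones with a distant +1 dyad.

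The remaining lists gave few members each. Where members were found, the interval of the share was wide and spanned 7.29%, which is given as a description. Mating genes had 2 of 19 (10.5%, 2.94 to 31.4%), STE4 (497 bp), the G protein beta subunit, and STE20 (420 bp), a kinase of the pheromone pathway. Cell wall genes had 2 of 19 (10.5%), GAS1 (484 bp) and CWP2 (440 bp). Amino acid and ammonium permeases had 2 of 20 (10%), MEP3 (418 bp) and CAN1 (408 bp). The proteasome list had 3 of 32 (9.38%), PRE8 (486 bp), RPT2 (431 bp) and PRE5 (411 bp), and the cyclins had 1 of 15 (6.67%), CLN3 (429 bp). The list of PAU and COS names, meant for subtelomeric families, had 1 of 5, COS111 (476 bp), but that gene shares only the letters of its name with the COS family and, with its TSS at 628940 on chromosome II, is not within 30 kb of a chromosome end. No member was found among 20 ergosterol genes, 28 RNA polymerase subunit genes, 8 histone genes and 5 genes of sugar uptake, which allows shares of up to 15, 10.7, 37.5 and 60%, so at these list sizes a share near 7.29% cannot be told apart from 0. The 5 genes of sugar uptake were the hexose transporter gene HXT8, the glucose sensor genes SNF3 and RGT2, and MAL13 and MAL33, which encode activators of maltose genes. By shared name, 3 members each came from ATG (24 rows), CDC (42), MDM (10), NUP (20) and PEX (21). Only names with 3 or more members were listed.

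**Figure D3:**
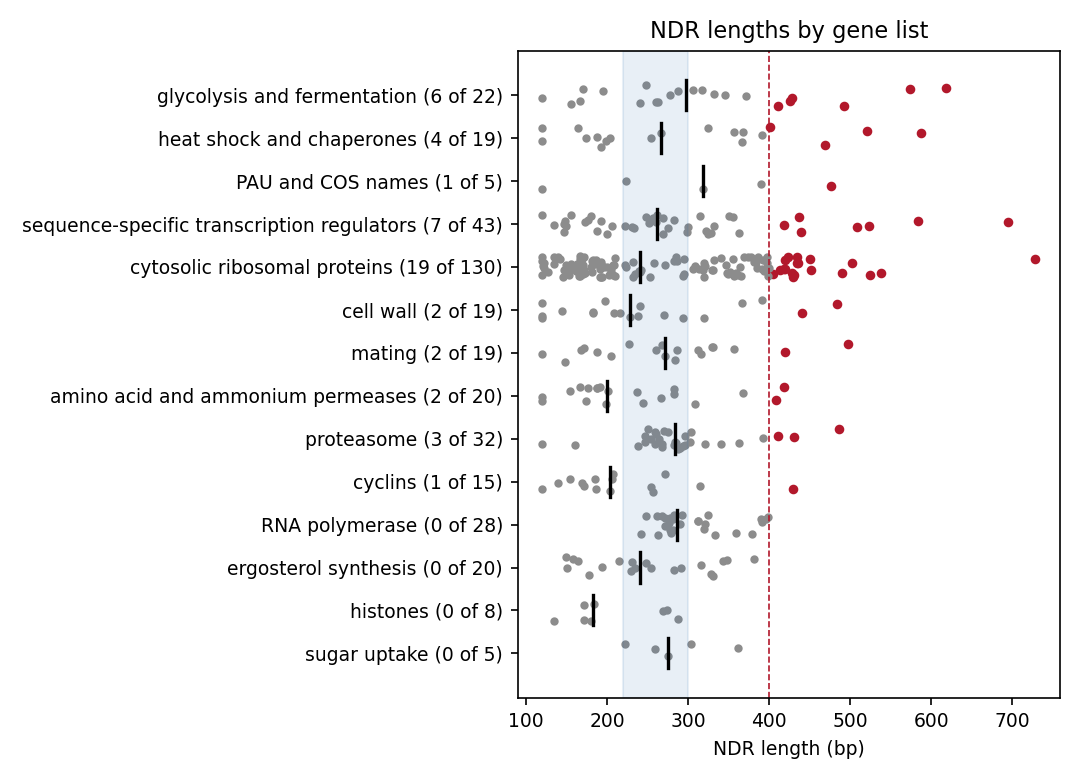
NDR length (bp) of each ORF promoter in 14 gene lists, ordered by the share above 400 bp, with members above the dashed line at 400 bp in red, black bars at the list medians and the 220 to 300 bp range shaded. Members of the ribosomal protein list sit in a broad spread, whereas the 28 RNA polymerase promoters end at 398 bp.

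Promoter orientation was measured on the annotation, which the selection did not use. A promoter was called divergent where the nearest upstream ORF lies on the other strand and tandem where it lies on the same strand. For RPL29 and GLK1 the ORF taken as neighbour was the other one named in the same row, and both were called tandem. Of the 327 members, 146 were divergent (44.6%, 39.4 to 50.1%) and 181 tandem, while 1300 of 2411 promoters of the 220 to 300 bp group were divergent (53.9%, 51.9 to 55.9%), beside 52.6% of all ORF promoters. The difference was −9.27 percentage points (95% Newcombe interval −14.9 to −3.50), and it passed the interval widened for the 10 comparisons made here (−17.3 to −1.01). The difference missed that widened interval when regions shared by neighbouring genes were counted once (−6.15 points, −14.3 to 2.58), and also above 350 or 500 bp and with members long by both columns. Genes are not independent replicates, and these intervals cover counting error only.

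Some long NDRs were shared by a transcript on either side. At 77 members (23.5%) the −1 dyad was also the +1 dyad of a transcript on the other strand, against 807 promoters (33.5%) in the 220 to 300 bp group. The opposite transcript was classed as an ORF at 67 of the 77, and 66 of them formed 33 pairs in which both genes are members by 1 common region. At SAS4, MDG1, FAL1 and TSR2 the opposite transcript was of another class but also names a protein-coding gene (CDC1, APC1, GCV1 and CNA1). The longest shared regions were those of BAS1 and UBP11 (511 bp), RPH1 and CCA1 (503 bp) and PSP2 and YML018C (488 bp). BAS1 encodes an activator of purine and histidine genes, RPH1 a histone demethylase, and CCA1 the tRNA nucleotidyltransferase. The TSSs of a pair lay 155 to 411 bp apart with a median of 315 bp. The pair of FKH1 and ASG1 (418 bp), that of PFK26 and MOB1 (451 bp) and that of RPL43A and PUF2 (420 bp) also belong here, so each of these regions entered the shares over members once for either gene.

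Long NDRs had more room upstream than NDRs of 220 to 300 bp. The stretch between the TSS and the nearest coding sequence upstream was 379 bp at the median in long NDRs (quartiles 293.5 and 563.5 bp) and 257 bp in the 220 to 300 bp group (quartiles 196 and 458 bp), a shift of 107 bp (95% Hodges–Lehmann interval 88 to 125 bp) that passed the widened interval. The 220 to 300 bp group was the low point among all lengths, since the median was also 465 bp for NDRs of 120 to 220 bp and 410 bp for those above 350 and up to 400 bp. In spite of this room, the −1 dyad lay in a coding sequence at 144 members (44.0%) and at 847 promoters of the 220 to 300 bp group (35.1%). Of those 144 members 106 were tandem, where the coding sequence is that of the gene in front, and 38 divergent. At CWP2 and YGR205W the TSS itself lay within an annotated coding sequence of another gene. The nearest coding sequence lay 34 bp upstream at PMA1, 45 bp at YGR127W and 54 bp at PGI1.

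The 5′ leader, measured between the TSS and the start codon along the genome, was 89 bp at the median in long NDRs (quartiles 47 and 172.5 bp, n = 323) and 63 bp in the 220 to 300 bp group (quartiles 40 and 117 bp, n = 2354). The shift of 18 bp (11 to 25 bp) passed the widened interval, but NDRs of 120 to 220 bp had a median leader of 85 bp. It was 8 bp with members long by both columns, where the widened interval reached −1 bp, and 6 bp at tandem promoters alone. The +1 dyad lay at or past the start codon at 164 members (50.2%) and at 1117 promoters of the 220 to 300 bp group (46.3%), and at 52 of the 69 members with a distant +1 dyad. Long leaders were found at FLR1 (989 bp), SAT4 (459 bp), HRP1 (379 bp) and WHI4 (378 bp).

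For gene size and for place along the chromosome the interval of the difference held 0. The span from start to stop codon, introns included, was 1437 bp at the median for long NDRs and 1359 bp for the 220 to 300 bp group, with a shift of 38 bp and an interval of −54 to 129 bp. Within 30 kb of a chromosome end lay 13 members (3.98%) and 62 promoters of the 220 to 300 bp group (2.57%), a difference of 1.41 points with an interval of −0.38 to 4.17.

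Non-coding RNA genes were more frequent at long NDRs than in the 220 to 300 bp group. Within 500 bp upstream of the TSS 30 of 327 members had an annotated non-coding RNA gene (9.17%, 6.50 to 12.8%), against 49 of 2412 promoters of the 220 to 300 bp group (2.03%, 1.54 to 2.68%), beside 3.75% of all ORF promoters. The difference of 7.14 points (4.39 to 10.8) passed the widened interval (3.44 to 12.7), but at tandem promoters alone it was 3.38 points and did not. By length, the share was highest in NDRs above 350 and up to 400 bp (31 of 247, 12.6%, 8.98 to 17.3%). It was 4.58% in NDRs of 120 to 220 bp and lowest in the 220 to 300 bp group. A tRNA gene overlapped the NDR at 23 members (7.03%, 4.73 to 10.3%) and at 0 of 2412 promoters of the 220 to 300 bp group, which allows a share of up to 0.124%. Longer regions have more room for a gene, so the overlap itself depends on length. The 500 bp window had the same size in both groups, but not the same room free of coding sequence. The median free space upstream of the TSS was 379 bp in long NDRs and 257 bp in the 220 to 300 bp group. The share with an RNA gene was not compared at equal free space.

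The share of NDRs with a tRNA gene differed by length. tRNA genes overlapped 1 of 982 NDRs of 120 to 220 bp (0.102%), 2 of 508 NDRs above 300 and up to 350 bp (0.394%), 26 of 247 above 350 and up to 400 bp (10.5%, 7.29 to 15.0%), 13 of 172 above 400 and up to 450 bp (7.56%, 4.47 to 12.5%), 6 of 99 above 450 and up to 500 bp (6.06%) and 4 of 56 above 500 bp (7.14%). The share was thus already as high just below the 400 bp limit as above it.

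Of the 24 tRNA genes at 23 members, 20 were on the strand of the ORF and 4 on the other, and 23 lay wholly between the dyads. Their near edge was 73 to 312 bp upstream of the TSS, with a median of 154 bp, and their midpoint was 193 bp from the −1 dyad at the median. The 8 longest were SAT4 (asparagine tRNA), SGT2 (arginine), GCD6 (isoleucine, 529 bp), NMA1 (serine, 516 bp), YDR306C (valine, 498 bp), FAR3 (tryptophan, 495 bp), KRE6 (alanine, 494 bp) and YVC1 (asparagine, 462 bp). In KRE6 the tRNA gene reached past the −1 dyad, since its midpoint was only 18 bp from it. With the other +1 column 22 of the 23 stayed above 400 bp, the exception being RMD11 (397 bp).

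**Figure D4:**
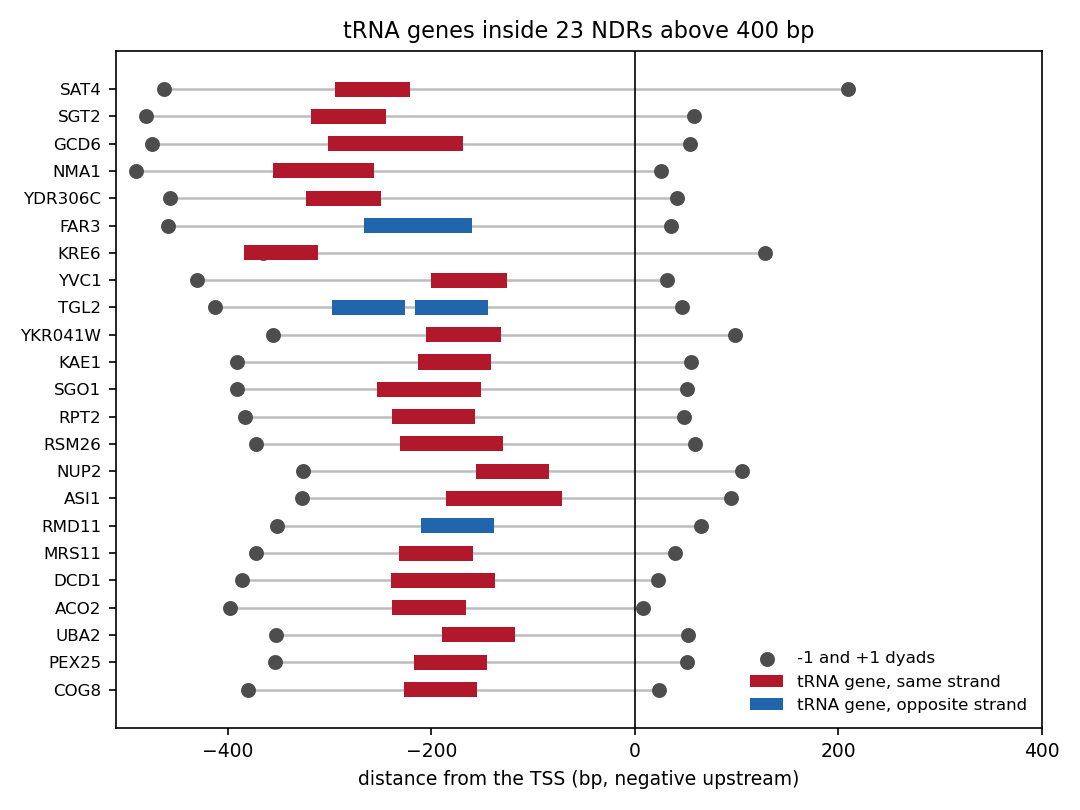
The 23 members with a tRNA gene inside the NDR, 1 per line and the longest on top, drawn in bp from the TSS (0). Dots mark the −1 and +1 dyads, and bars the tRNA genes, red on the strand of the ORF (20) and blue on the other strand (4). All 24 bars lie upstream of the TSS, with near edges 73 to 312 bp from it.

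tRNA genes occur in many copies, and reads that matched the genome more than once were omitted by the authors. A 50-mer that occurs more than once was present in the NDR of 22 of the 23 tRNA members, with a median of 7.62% of the NDR over the 23, against 28 of all 327 members and 7 of 2412 promoters of the 220 to 300 bp group. Without rows in which repeated 50-mers made up 10% or more (9 members, 7 of them with a tRNA gene) the share with a non-coding RNA gene was 7.23%, against 2.03% in the 220 to 300 bp group. Without any row that held a repeated 50-mer, which removes nearly all tRNA genes by construction, it was 2.68% against 2.04%, a difference of 0.638 points (−0.826 to 3.20). UBA2, with its glycine tRNA gene between the dyads and no repeated 50-mer, was the single tRNA member left. The paper states no read length for the in vivo library. A region without a repeated 50-mer may thus still hold sequence to which its reads did not map. The part of unmapped reads in the length of these NDRs was not tested.

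Other RNA genes were few. The NDR of YOR223W (454 bp) overlapped the snoRNA gene SNR35, that of UFO1 (487 bp) held ZOD1, that of PIL1 (500 bp), an eisosome gene, held SUT125 on the other strand, and that of MRH1 (508 bp) overlapped SUT053. The NDR of TUB3 (471 bp) lay wholly within the antisense RNA gene of PHO84, and that of GTR1 (521 bp) reached into it. These were named after their values were seen. Replication origins lay in 4 members and long terminal repeats of transposons in 5.

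The DNA upstream of the TSS of long NDRs was richer in A and T runs than that of the 220 to 300 bp group. In the 250 bp upstream of the TSS, 15 bases at the median lay in runs of 6 or more A or T in long NDRs (quartiles 7 and 23), and 6 bases in the 220 to 300 bp group (quartiles 0 and 13), a shift of 7 bases (95% interval 6 to 8). GC content over the same stretch was 33.2% in long NDRs and 35.2% in the 220 to 300 bp group, a shift of −1.6 percentage points (−2.4 to −1.2). Both passed the widened interval, also where the 250 bp held no coding sequence of another gene (shifts of 7 bases and −1.6 points, 284 members). By length, the median was 12 bases in NDRs above 300 and up to 350 bp, and 14 above 350 and up to 400 bp. It was 15 bases above 400 and up to 450 bp, 13 up to 500 bp and 16 above 500 bp. Runs were thus already about as frequent just below the 400 bp limit as above it. Median GC content was 34.8% above 350 and up to 400 bp, 32.8% above 400 and up to 450 bp and 35.4% above 500 bp. RPS9A (47 bases), RPL5 (41), FKH1 (49) and AHA1 (52) were rich in runs, whereas SIS1, ASH1, YAP1 and FLR1 had 0, so the runs were no property of every member.

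The difference in runs was larger in the upstream part of the window than next to the TSS. From 0 to 50 bp upstream of the TSS runs took up 4.51% of bases in long NDRs and 2.98% in the 220 to 300 bp group. From 50 to 100 bp they took up 7.85% in long NDRs and 6.85% in the 220 to 300 bp group, and from 100 to 150 bp 7.19% and 3.67%. From 150 to 200 bp they took up 6.20% in long NDRs and 1.42% in the 220 to 300 bp group, and from 200 to 250 bp 7.32% and 1.57%. From 250 to 300 bp they took up 5.57% in long NDRs and 2.20% in the 220 to 300 bp group, from 300 to 350 bp 3.23% and 1.77%, and from 350 to 400 bp 1.90% and 1.45%. The fall in runs thus came further upstream in long NDRs, and in both groups it came before the median distance of the −1 dyad (376 bp in long NDRs and 211 bp in the 220 to 300 bp group). In a window of 150 bp the shift was 1 base with a widened interval that reached 0, and the shift in GC content −0.667 points (−1.33 to 0.667 at the widened level).

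**Figure D5:**
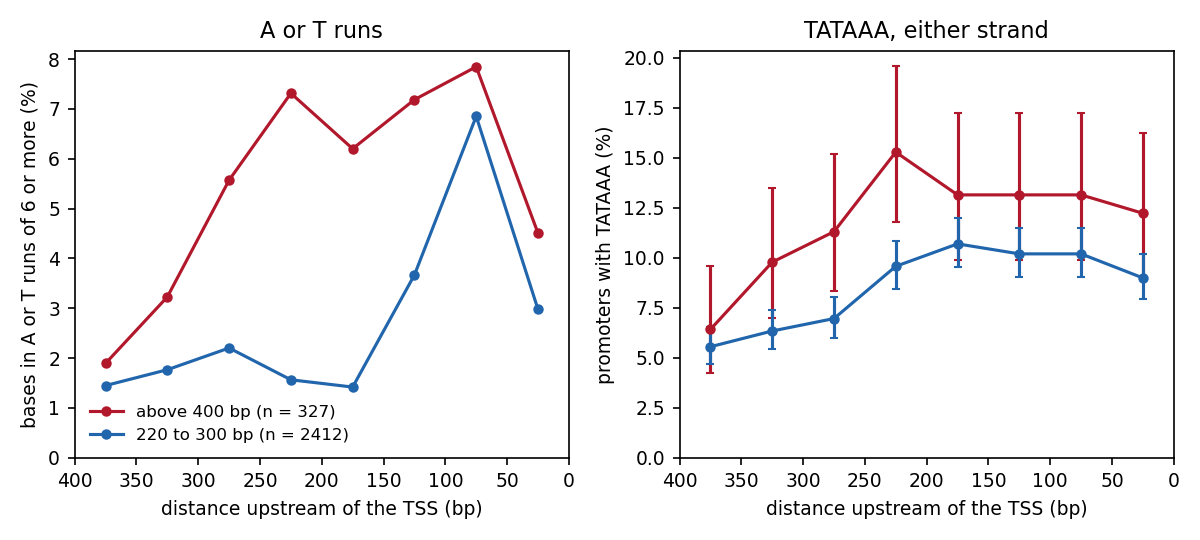
Percent of bases in runs of 6 or more A or T (left) and percent of promoters with TATAAA on either strand (right, bars 95% Wilson intervals) in 50 bp steps upstream of the TSS, for NDRs above 400 bp (red, n = 327) and of 220 to 300 bp (blue, n = 2412). In the left panel the curves are close at 50 to 100 bp (7.85 and 6.85%) and furthest apart at 200 to 250 bp (7.32 and 1.57%).

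TATAAA, the core of the TATA box bound by the TATA-binding protein, was searched on both strands of the 250 bp upstream of the TSS. It was present at 171 of 327 members (52.3%, 46.9 to 57.6%) and at 975 of 2412 promoters of the 220 to 300 bp group (40.4%, 38.5 to 42.4%), beside 40.5% of all ORF promoters. The difference of 11.9 points (6.11 to 17.6) passed the widened interval, but missed it with each region counted once (7.79 points, widened interval −0.885 to 16.4) with NDRs above 500 bp (2.43 points) and at tandem promoters alone (2.11 points). Where the 250 bp held no coding sequence of another gene the difference was 14.1 points (7.64 to 20.4). Among the members named, TATAAA was found at RPS9A, SIS1, NCE102, ZUO1, SSB1 and CLN3, and not at RPN4, PFK1, HAP4, SSA1 and SSA2. By length, 57.0% of NDRs above 400 and up to 450 bp, 49.5% of those up to 500 bp and 42.9% of those above 500 bp held it.

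TTACCC, the core of the Reb1 site, was present at 21.4% of members (17.3 to 26.2%) and 18.3% of the 220 to 300 bp group (16.8 to 19.9%), beside 18.5% of all ORF promoters. Its difference of 3.12 points had an interval of −1.28 to 8.12, which holds 0. Reb1 is a general regulatory factor that binds upstream of many yeast promoters.

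Shares of other motifs were measured without a call. GAANNTTC, added after the chaperone genes had been seen among the members, was present at 54 members (16.5%, 12.9 to 20.9%) and 247 promoters of the 220 to 300 bp group (10.2%, 9.09 to 11.5%), beside 10.6% of all ORF promoters. It was found at SSA1, SSA2, SIS1, RPN4 and AHA1, and not at SSB1, HSC82, ZUO1, MDJ1 and SSE2. Binding by Hsf1 was not tested. CACGTG, the E-box bound by Cbf1 and Pho4, was present at 6.73% of members (4.49 to 9.98%) and 3.11% of the 220 to 300 bp group (2.49 to 3.88%), beside 4.08% of all ORF promoters. AGGGG, the stress response element bound by Msn2 and Msn4, was present at 20.5% (16.5 to 25.2%) and 14.7% (13.4 to 16.2%), beside 18.8% of all, and CCAAT, bound by the Hap complex, at 30.3% (25.5 to 35.5%) and 36.7% (34.7 to 38.6%), beside 35.1% of all.

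For the motifs other than these the interval of the difference held 0. The site of Abf1 was present at 15.6% of members and 16.9% of the 220 to 300 bp group, ACGCG, the core of the MBF site, at 13.5% and 15.6%, CNCGAAA of SBF at 15.3% and 14.6%, ATTGTT at 27.5% and 30.5%, and TGACTCA of Gcn4 at 2.45% and 2.36%. The strict Rap1 pattern was found at 0 members, which allows a share of up to 0.917%, and at only 9 of 4485 ORF promoters, so it was too rare in this window to compare.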

How the data were processed

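Dyad coordinates came from a deposited table of the whole series. Per the authors' methods, single-end reads of the in vivo library were mapped with Bowtie to SacCer3 (R64-1-1), reads with multiple matches were omitted, read ends were shifted to the dyad and smoothed, and dyads were called by taking peaks in order of height, each excluding its surroundings, with the weakest calls dropped. A dropped or unmapped −1 or +1 nucleosome lengthens the NDR by this definition. The +1 dyad was the one nearest downstream of a published TSS, and the −1 dyad the next one upstream. Values are coordinates and lengths in bp, as the authors deposited them, in no other unit. No count per dyad is used here, and each value stands without replicates.

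Loci were matched to the RefSeq R64 annotation (4484 of 4485 ORF rows). Orientation, free space, RNA genes, base composition and motifs (both strands) were measured with Python 3.11.15, numpy 2.4.6, pandas 2.3.3 and scipy 1.17.1. Shares have Wilson intervals (statsmodels 0.14.6), their differences Newcombe intervals, and medians Hodges–Lehmann shifts with rank-sum intervals, all at 95%. A difference was called where the interval at 99.5%, for 10 comparisons, left out 0. The intervals were tested on simulated data. Named genes were the 20 longest members, all members of each of 14 gene lists (the 6 longest of lists with many members), the 8 longest with a small RNA gene inside, 3 promoters either side of 400 bp, and families of 3 or more; systematic names were not read as families. Members and lists were chosen with earlier results of these data known. Alternatives are given in the closing section.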

Additional observations from a re-analysis of the deposited data

Results flagged for a closer look

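Divergent and tandem promoters differed in how far NDRs above 400 bp departed from NDRs of 220 to 300 bp for 3 of 7 measures, each past an interval widened for the 7 (normal approximation to the interval of the difference). For the free space upstream of the TSS the shift was 182 bp at divergent promoters (95% interval 150 to 215) and 64 bp at tandem promoters (42 to 84), a difference of 118 bp (79.3 to 157). For the share with TATAAA it was 19.8 percentage points at divergent promoters (50.7% of long NDRs against 30.9%) and 2.11 points at tandem promoters (53.6% of long NDRs against 51.5%), a difference of 17.7 points (6.22 to 29.1). For the 5′ leader it was 34 bp at divergent promoters (22 to 46) and 6 bp at tandem promoters (−2 to 15), a difference of 28 bp (13.3 to 42.7). Tandem promoters of the 220 to 300 bp group thus already held TATAAA about as often as long NDRs of either orientation. For the share with a non-coding RNA gene, 11.6 points at divergent and 3.38 points at tandem promoters, the difference of 8.18 points had an interval of 1.53 to 14.8 and missed the widened interval. The test between orientations was added after the data were seen, and the cause was not tested.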

How the results depend on the processing

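Of 99 alternative values, 82 kept their direction and their side of the widened interval, 14 kept the direction but no longer passed, and 3 reversed. The free space upstream of the TSS passed under all of its alternatives (64 to 212 bp). The share of divergent promoters no longer passed above 350 bp (−4.27 points), above 500 bp (−7.49), with each region once (−6.15) and with members long by both columns (−8.36). The share with a non-coding RNA gene no longer passed at tandem promoters (3.38 points) or without any repeated 50-mer (0.638), nor that with TATAAA above 500 bp (2.43), with each region once (7.79) and at tandem promoters (2.11). The shift in GC content no longer passed above 500 bp (−0.4 points) and in a 150 bp window (−0.667), that in A or T runs in a 150 bp window (1 base), and that of the 5′ leader at tandem promoters (6 bp) and with members long by both columns (8 bp). With fewer members (56 above 500 bp) the intervals are wider. Other causes were not tested. The reversals concerned differences that had not passed: TTACCC where the window held no coding sequence (−0.37 points), and gene span above 350 bp (−3 bp) and with the other +1 column (−22 bp). The comparison by both columns, that in windows without coding sequence and that without any repeated 50-mer were chosen after seeing the data. No paired analysis was possible because the members come from 1 library. The depth behind each dyad is unknown.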

Other observations

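The deposited lists of restriction cut sites give another reading of these regions. Per kb of NDR, with overlapping regions merged, BamHI cut 0.0735 times in long NDRs (exact Poisson interval 0.0353 to 0.135, 10 sites) and 0.0483 times in NDRs of 220 to 300 bp (0.0316 to 0.0708, 26 sites). EcoRV cut 0.257 times in long NDRs (0.179 to 0.358, 35 sites) and 0.277 times in the 220 to 300 bp group (0.234 to 0.325, 149 sites), and KpnI 0.11 times (0.0617 to 0.182, 15 sites) and 0.0948 times (0.0706 to 0.125, 51 sites). The intervals of the groups overlapped for each of the 3 enzymes.

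MDM31 (420 bp) and MDM32 (446 bp) encode mitochondrial inner membrane proteins. MDM34 (415 bp) encodes a subunit of the tether between mitochondria and the endoplasmic reticulum. These were the 3 members among 10 promoters of genes named MDM, beside 7.29% of all ORF promoters. Only names with 3 or more members were listed, so this count came from a choice on the same lengths. Each of the 3 shared its region with a divergent partner, EGD2, PNO1 and KIP3. The 3 were named after their values were seen.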
